A study of Mus musculus with 12 samples.

Results

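The cyclin-dependent kinase inhibitors of mouse are 7 genes in 2 families, and all 7 were found by symbol among the 43346 genes listed for quadriceps, the large thigh muscle. The Cip/Kip family holds Cdkn1a (p21), Cdkn1b (p27) and Cdkn1c (p57). The INK4 family holds Cdkn2a (p16), Cdkn2b (p15), Cdkn2c (p18) and Cdkn2d (p19). Messenger RNA was sequenced from C57BL/6 mice in 3 groups of 4 libraries. The D+Q mice were 24 months old and had received dasatinib (5 mg/kg), a tyrosine kinase inhibitor, with quercetin (50 mg/kg), a plant flavonoid, by gavage. They were dosed on 3 days in every 2 weeks from month 20, a regimen meant to remove senescent cells. The old vehicle mice were of the same age and were gavaged on the same schedule with the carrier alone. The young mice were 6 months old, and no gavage is stated for them, so age and gavage cannot be told apart between old vehicle and young, or between D+Q and young. Whether a library stands for 1 mouse is not stated, so p-values rest on the spread from library to library.

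These inhibitors hold the cell cycle. INK4 proteins bind the kinases CDK4 and CDK6 and keep them from D-type cyclins, while Cip/Kip proteins bind cyclin and kinase together, with CDK2 as their best known target. Held kinases leave the retinoblastoma protein active, and it keeps E2F factors from switching on genes of DNA replication. Muscle fibres are nondividing cells, and p21 and p57 are known for their part in cell cycle exit when myoblasts become fibres. p16 and p21 are also the inhibitors most used as marks of senescence.

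Library totals ran from 26715140 to 49792488 reads, and 16146 genes had enough reads to be tested. Young replicates 3 and 4 had the lowest totals and lay apart from the other 10 libraries on the first principal component, which held 42.9% of the variance. The markers of skeletal muscle fibre were all present, with a summed level of 147000 to 218000 CPM in D+Q, 145000 to 180000 CPM in old vehicle and 134000 to 199000 CPM in young libraries (CPM is the read count relative to the scaled library total). As the tissue was taken whole, fewer cells of a type and less RNA per cell cannot be told apart.

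The start regions of the genes on which the results turn are shown first, because Cdkn1a and Cdkn2a each have alternative starts that a count per gene adds together. Each window runs from 250 bases before to 50 bases after a RefSeq start on GRCm38.p6, is written 5′ to 3′ on the strand of the gene, and has every match of 5 searched motifs on either strand in capitals. RefSeq windows were found for 6 of the 7 genes, 9 windows in all.
Cdkn1a, upstream start, chr17:29090729-29091028, plus strand: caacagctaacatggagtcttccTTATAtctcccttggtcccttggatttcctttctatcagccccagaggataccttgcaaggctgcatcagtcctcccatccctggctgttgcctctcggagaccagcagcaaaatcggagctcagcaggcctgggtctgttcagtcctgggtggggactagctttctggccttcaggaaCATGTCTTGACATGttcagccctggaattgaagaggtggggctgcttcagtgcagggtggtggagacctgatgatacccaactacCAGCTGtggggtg
Cdkn1a, downstream start, chr17:29093519-29093818, plus strand: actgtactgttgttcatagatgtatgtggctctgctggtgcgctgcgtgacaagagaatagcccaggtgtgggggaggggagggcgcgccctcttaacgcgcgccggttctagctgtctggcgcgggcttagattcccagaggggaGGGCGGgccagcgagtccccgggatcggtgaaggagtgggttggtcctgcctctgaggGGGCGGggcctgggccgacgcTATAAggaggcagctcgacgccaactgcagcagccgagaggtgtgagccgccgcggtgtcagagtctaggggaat
Cdkn1b, chr6:134920151-134920450, plus strand: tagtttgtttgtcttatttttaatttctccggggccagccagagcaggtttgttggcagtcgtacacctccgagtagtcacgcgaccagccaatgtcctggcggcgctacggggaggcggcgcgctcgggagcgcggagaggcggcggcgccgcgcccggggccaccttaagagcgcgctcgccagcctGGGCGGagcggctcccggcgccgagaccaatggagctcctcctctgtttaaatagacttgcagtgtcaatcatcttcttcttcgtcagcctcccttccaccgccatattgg
Cdkn2a, upstream start, chr4:89294570-89294869, minus strand: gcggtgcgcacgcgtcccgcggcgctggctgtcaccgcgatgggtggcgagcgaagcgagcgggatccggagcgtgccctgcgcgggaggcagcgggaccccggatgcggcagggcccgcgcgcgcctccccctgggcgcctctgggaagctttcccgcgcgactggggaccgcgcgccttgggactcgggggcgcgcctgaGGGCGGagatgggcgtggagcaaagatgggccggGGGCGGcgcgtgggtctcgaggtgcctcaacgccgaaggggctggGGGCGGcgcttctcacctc
Cdkn2a, downstream start, chr4:89282143-89282442, minus strand: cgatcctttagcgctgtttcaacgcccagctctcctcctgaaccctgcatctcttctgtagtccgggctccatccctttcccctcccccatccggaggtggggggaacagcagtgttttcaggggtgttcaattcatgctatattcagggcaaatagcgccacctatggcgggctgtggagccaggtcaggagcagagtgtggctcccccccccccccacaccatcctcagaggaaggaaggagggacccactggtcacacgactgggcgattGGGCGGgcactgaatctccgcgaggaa

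The first motif was a pair of p53 half-site cores, written CATGNNNNNNCATG, which 0.712% of 32851 mouse windows of the same length held. The second was the GC box, a site of Sp factors written GGGCGG, held by 35.7% of the windows. The TATA box, searched as TATAA, was in 24.9% of the windows. The E-box of myogenic factors, searched as CAGCTG, was in 16.3%, and the FoxO motif, searched as TGTTTAC, in 3.65%. The upstream Cdkn1a window held the p53 core pair, its first base 48 bases before the start, and it was the 1 window of the 9 with that match. It also held 1 E-box and, on the other strand, 1 TATA box. The downstream Cdkn1a window, 2790 bases further along, held 2 GC boxes and a TATA box whose first base is 25 bases before the start. The Cdkn1b window held 1 GC box. The upstream Cdkn2a window, whose transcript encodes ARF, held 3 GC boxes, and the downstream one, whose transcript encodes p16, held 1. These matches are letters in a window and do not show binding, and the reads were not assigned to one start or the other.

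Cdkn1a encodes p21, the Cip/Kip inhibitor that p53 induces after DNA damage. It lies on chromosome 17 from 29090979 to 29100722 of mm10 (ENSMUSG00000023067), and this interval takes in both starts. In replicates 1 to 4, D+Q libraries had 107, 135, 127 and 204 CPM. Old vehicle libraries had 180, 241, 138 and 209 CPM, and young libraries 57.2, 79.8, 28.8 and 114 CPM. Every old vehicle library stood above every young one, 3 of the 4 D+Q libraries stood above the highest young one, and the D+Q and old vehicle ranges overlapped with D+Q replicate 4 among the old vehicle values. The means were 143 ± 42.1 CPM in D+Q, 192 ± 43.7 CPM in old vehicle and 70.0 ± 36.1 CPM in young (SD, n = 4). Relative to the mean, the spread was widest in young, where the highest library was 3.97-fold above the lowest.

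For old vehicle against young the log2 fold change of Cdkn1a was 1.45 ± 0.35 (SE), a 2.74-fold difference with a 95% interval from 1.63-fold to 4.6-fold. It did not pass the quasi-likelihood test of edgeR after Benjamini-Hochberg adjustment over all tested genes (adjusted p = 0.0545), and it ranked 317 of 16146 by p. DESeq2 called it (adjusted p = 0.00177), and so did limma-voom (adjusted p = 0.0379). The edgeR test also passed without young replicate 2 (adjusted p = 0.0443) and without young replicate 4 (adjusted p = 0.0269). Without the young replicates 3 and 4 that lay apart it did not (1.49, adjusted p = 0.0584). Over the 18 other settings run, 7 gave a call, with adjusted p from 0.00177 to 0.146 and a log2 fold change from 1.20 to 1.79.

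For D+Q against old vehicle the log2 fold change of Cdkn1a was -0.42 ± 0.34 (SE), with a 95% interval from -1.16 to 0.31 (adjusted p = 1). The interval reaches from a level in D+Q of 0.448 times that in old vehicle to one of 1.24 times it. Without D+Q replicate 4, the highest D+Q library, the value was -0.64, and under all 17 other settings it lay between -0.64 and -0.30 with no call. Set against young, D+Q gave 1.03 ± 0.34 (SE), or 2.04-fold with an interval from 1.22-fold to 3.41-fold, and did not pass (adjusted p = 0.184, and 0.0685 to 0.348 over 18 other settings). These comparisons share libraries, so their values are not independent of each other.

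**Figure D1:**
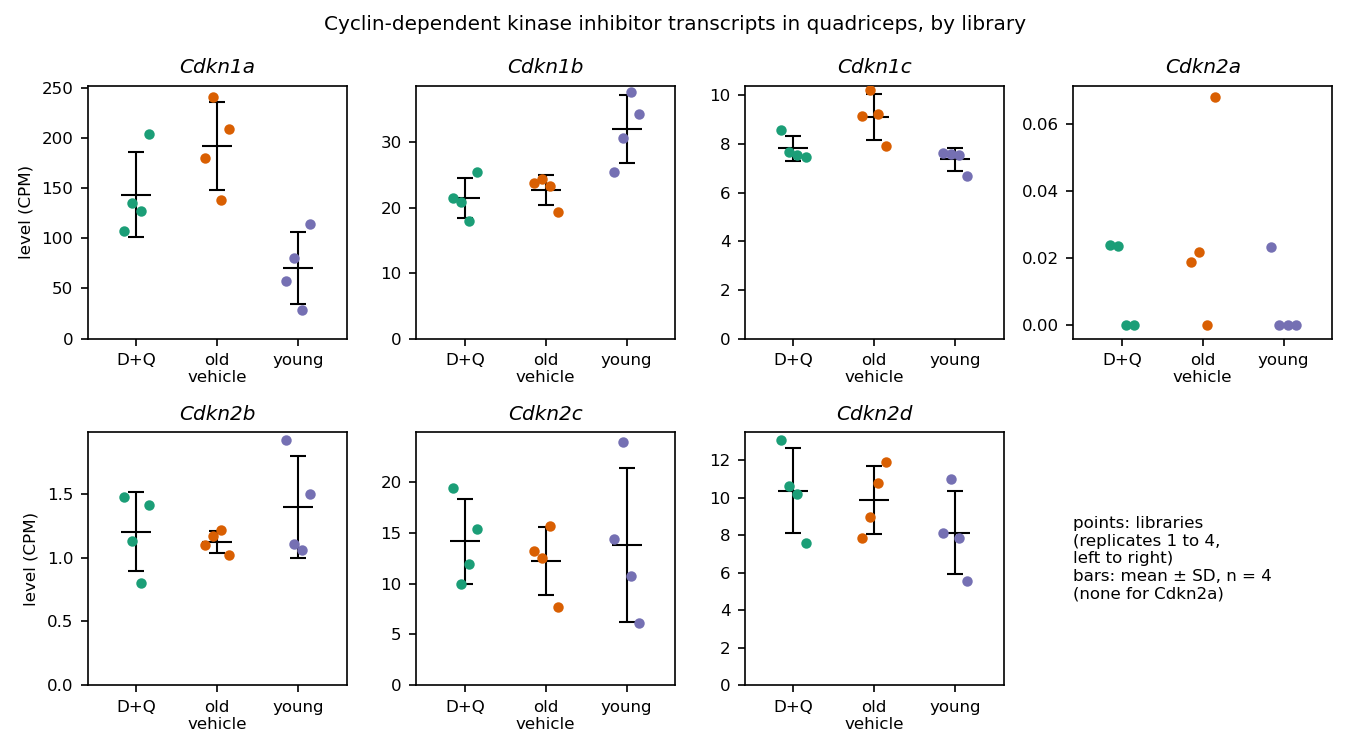
Level in CPM (y axis, from 0) of the 7 inhibitors in each library of D+Q, old vehicle and young, with mean ± SD of 4 libraries (no bars for Cdkn2a, whose values rest on 0 to 3 reads). Old vehicle lies above young for Cdkn1a (138 to 241 CPM against 28.8 to 114 CPM), and D+Q and old vehicle both lie below young for Cdkn1b.

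Cdkn1b encodes p27, which binds cyclin E with CDK2 and is high in resting cells. It lies on chromosome 6 from 134920401 to 134925513 of mm10 (ENSMUSG00000003031). Its values in replicates 1 to 4 were 21.4, 20.9, 18 and 25.5 CPM in D+Q. They were 23.7, 24.4, 23.3 and 19.4 CPM in old vehicle and 25.5, 30.6, 37.6 and 34.3 CPM in young. All 8 libraries of the 24-month groups stood below every young library, though the highest D+Q and the lowest young value both round to 25.5 CPM. Old vehicle and young thus stood in the opposite order to that of Cdkn1a, with the higher values in young muscle.

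The log2 fold change of Cdkn1b was -0.49 ± 0.14 (SE, 95% interval -0.80 to -0.19) for old vehicle against young and -0.58 ± 0.14 (SE, 95% interval -0.88 to -0.27) for D+Q against young. Neither passed in edgeR (adjusted p = 0.106 and 0.0800). DESeq2 called both (adjusted p = 0.0451 and 0.0135), and limma-voom neither (adjusted p = 0.126 and 0.0972). Without young replicate 2 the D+Q comparison passed in edgeR (adjusted p = 0.0352). With young replicates 3 and 4 both left out, a setting added after seeing the data, the values were -0.31 and -0.39 (adjusted p = 0.609 and 0.535). Between D+Q and old vehicle the log2 fold change was -0.08 ± 0.14 (SE, 95% interval -0.39 to 0.22, adjusted p = 1). Tenocyte markers, the genes of tendon cells, summed to 182 to 338 CPM in D+Q, 202 to 381 CPM in old vehicle and 365 to 482 CPM in young. Within each group they ran opposite to Cdkn1b, with the same order in 0 of 6 pairs of libraries in D+Q, in old vehicle and in young. Between groups the order was not opposite. Tenocyte markers and Cdkn1b both lay highest in young, though the tenocyte ranges of old vehicle and young overlapped. The tenocyte list was picked out after the values were seen, from all the marker lists set beside the inhibitors. The part of tenocyte RNA in the Cdkn1b level was not tested.

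**Figure D2:**
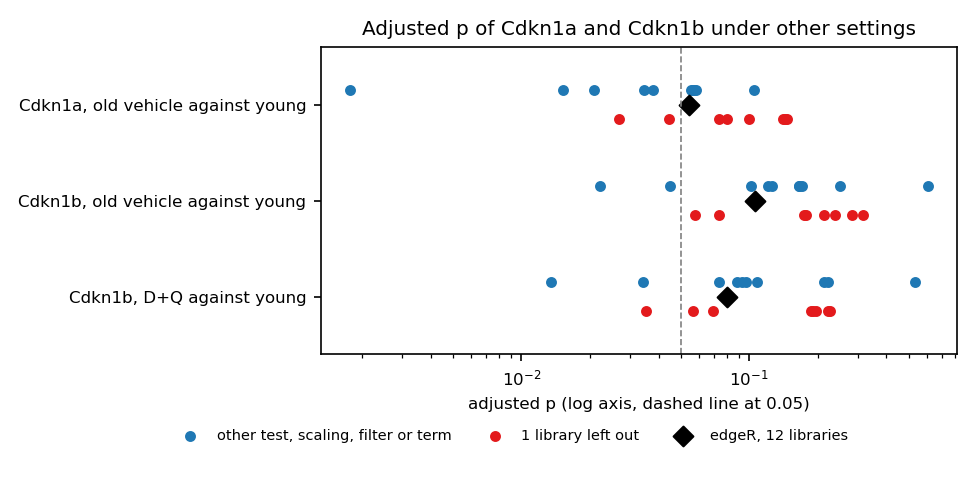
Adjusted p (x axis, log scale, dashed line at 0.05) of Cdkn1a and Cdkn1b in edgeR with 12 libraries (diamond), with 1 library left out (red) and with another test, scaling, filter or term (blue). The diamonds at 0.0545, 0.106 and 0.0800 lie above the line, and points fall on both sides of it in each row.

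Cdkn1c encodes p57, the imprinted member of the family, expressed from the maternal copy. It lies on chromosome 7 from 143458350 to 143461050 of mm10 (ENSMUSG00000037664). D+Q libraries had 8.57, 7.68, 7.55 and 7.45 CPM, old vehicle libraries 9.13, 10.2, 9.22 and 7.91 CPM, and young libraries 7.64, 7.58, 7.55 and 6.66 CPM. The old vehicle libraries all stood above the young ones, and D+Q overlapped both. It was the steadiest of the 7 within D+Q and within young (coefficients of variation of 6.55% and 6.35%). The log2 fold change was 0.31 ± 0.12 (SE, 95% interval 0.06 to 0.56, adjusted p = 0.223) for old vehicle against young. It was -0.22 ± 0.12 (SE, 95% interval -0.47 to 0.03, adjusted p = 1) for D+Q against old vehicle and 0.09 ± 0.12 (SE, adjusted p = 0.659) for D+Q against young. None was called by edgeR, DESeq2 or limma-voom.

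Across the 6 tested inhibitors, edgeR called 0 of 6 for old vehicle against young, where 1.86% of all tested genes were called. At an unadjusted p under 0.05 there were 3 (Cdkn1a, Cdkn1b and Cdkn1c), against 16% of all tested genes. DESeq2 called 2 of the 6 and limma-voom 1, while over all genes they called 778 and 276. The same 3 genes had groups that did not overlap, 2 higher and 1 lower in old vehicle, where 9.36% of tested genes did not overlap (3.97% higher and 5.39% lower). In D+Q against old vehicle edgeR called 0 of 6, as it called 0% of all tested genes. There 0 of the 6 had an unadjusted p under 0.05, against 2.16% of all tested genes. DESeq2 and limma-voom called 0 of the 6, while over all genes they called 11 and 0. All 6 had groups that overlapped in that comparison, where 2.17% of all tested genes had groups that did not (1.05% higher and 1.12% lower in D+Q). In D+Q against young edgeR called 0 of 6 against 0.892% of all tested genes, and 2 had an unadjusted p under 0.05, against 17.8% of all tested genes. DESeq2 called 1 of the 6 and limma-voom 0 in that comparison, while over all genes they called 610 and 121. Cdkn1b alone of the 6 did not overlap there, against 6.69% of tested genes (2.86% higher and 3.83% lower in D+Q).

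**Figure D3:**
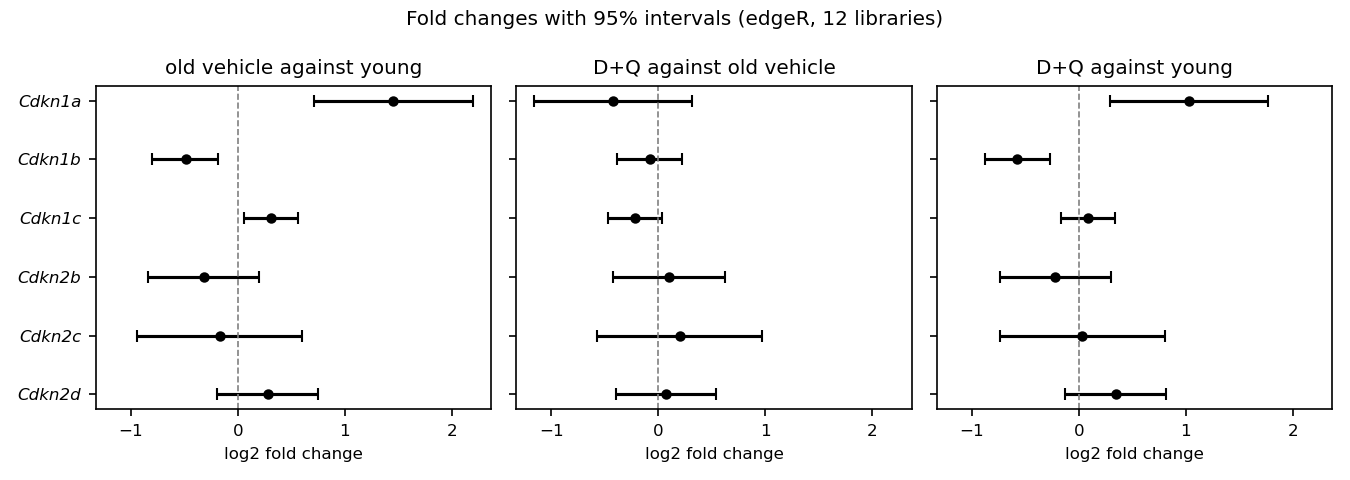
Log2 fold change (x axis) with its 95% interval for the 6 tested inhibitors in the 3 comparisons, the first-named group over the second. The intervals of Cdkn1a, Cdkn1b and Cdkn1c leave out 0 for old vehicle against young, and all 6 take in 0 for D+Q against old vehicle.

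Cdkn2a encodes p16 and, from the upstream start 12427 bases away, the p53 activator ARF. It lies on chromosome 4 from 89274471 to 89294653 of mm10 (ENSMUSG00000044303), and its counts hold both transcripts. D+Q libraries had 1, 1, 0 and 0 reads, old vehicle libraries 1, 1, 0 and 3 reads, and young libraries 1, 0, 0 and 0 reads. The gene was thus at or near 0 in every library, with a read in 2 D+Q, 3 old vehicle and 1 young library. The pooled levels were 0.0116 CPM in D+Q, 0.0277 CPM in old vehicle and 0.00661 CPM in young. Their exact 95% Poisson intervals were 0.00141 to 0.0421 CPM, 0.00899 to 0.0646 CPM and 0.000167 to 0.0368 CPM, and cover counting error only.

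Cdkn2a did not pass the filter on low counts, so it was tested by a two-sided exact permutation test of the mean CPM of 4 libraries against 4, which cannot give a p below 0.0286. The p was 0.371 for old vehicle against young, 0.629 for D+Q against old vehicle and 0.429 for D+Q against young. The pooled level in old vehicle was 4.19 times that in young, with a 95% counting interval from 0.469 to 198 times. In D+Q it was 0.420 times that in old vehicle, with an interval from 0.0400 to 2.57 times. A difference in Cdkn2a between the groups was not detectable at this depth, and the count gives no value for the p16 transcript alone.

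Cdkn2b encodes p15, an INK4 inhibitor induced by TGF-beta, and is the neighbour of Cdkn2a on chromosome 4, from 89306289 to 89311032 (ENSMUSG00000073802). It had 62, 48, 34 and 64 reads in D+Q, 59, 54, 45 and 45 reads in old vehicle and 83, 50, 30 and 53 reads in young. The 3 groups overlapped, with means of 1.21 ± 0.311 CPM in D+Q, 1.13 ± 0.0872 CPM in old vehicle and 1.40 ± 0.404 CPM in young (SD, n = 4). The log2 fold change was -0.32 ± 0.24 (SE, 95% interval -0.84 to 0.20, adjusted p = 0.494) for old vehicle against young and 0.10 ± 0.24 (SE, 95% interval -0.42 to 0.62, adjusted p = 1) for D+Q against old vehicle. It was -0.22 ± 0.24 (SE, 95% interval -0.74 to 0.30, adjusted p = 0.584) for D+Q against young.

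Cdkn2c encodes p18, the INK4 inhibitor that rises late in myoblast differentiation in mouse cells. It lies on chromosome 4 from 109660876 to 109667189 (ENSMUSG00000028551). D+Q libraries had 19.4, 9.93, 11.9 and 15.4 CPM, old vehicle libraries 13.2, 12.5, 15.7 and 7.68 CPM, and young libraries 14.4, 24.0, 10.7 and 6.12 CPM. The young libraries alone spanned 3.91-fold and took in every D+Q and old vehicle value. The log2 fold change was -0.17 ± 0.36 (SE, 95% interval -0.94 to 0.60, adjusted p = 0.812) for old vehicle against young. It was 0.20 ± 0.36 (SE, 95% interval -0.57 to 0.97, adjusted p = 1) for D+Q against old vehicle and 0.03 ± 0.36 (SE, adjusted p = 0.961) for D+Q against young. The last value turned negative when libraries were scaled by their totals alone (-0.01), and also without young replicate 3 or 4 or without D+Q replicate 1 or 4 (-0.21 to -0.01).

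Within each group, the order of libraries by Cdkn2c was close to their order by adipocyte markers, the genes of fat cells. The summed level of the 6 markers was 519, 136, 287 and 149 CPM in D+Q replicates 1 to 4, 240, 178, 316 and 87.1 CPM in old vehicle and 427, 1010, 181 and 56.6 CPM in young. Cdkn2c and this sum had the same order in 5 of 6 pairs of D+Q libraries, 6 of 6 pairs of old vehicle libraries and 6 of 6 pairs of young libraries. None of the 6 markers was at 0 in all libraries. The adipocyte list was picked out after the values were seen, from 13 marker lists set beside 6 inhibitors. Other lists also stood out within a single group. In young, skeletal muscle fibre and fibro-adipogenic progenitor markers each had the order of Cdkn2c in 6 of 6 pairs, and smooth muscle and pericyte markers in 0 of 6. In old vehicle, T and NK cell markers and B and plasma cell markers each had it in 5 of 6 pairs, and satellite cell markers in 0 of 6. The part of adipocyte RNA in the Cdkn2c level was not tested.

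**Figure D4:**
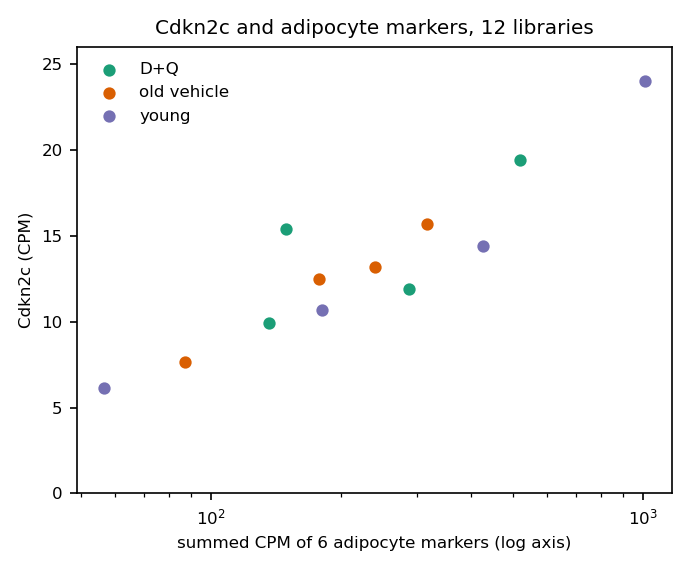
Cdkn2c level in CPM (y axis) against the summed CPM of 6 adipocyte markers (x axis, log scale) in the 12 libraries, coloured by group. The library lowest on both axes is young (56.6 CPM of markers, 6.12 CPM of Cdkn2c), and so is the highest (1010 CPM and 24.0 CPM).

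Cdkn2d encodes p19 of the INK4 family, a protein distinct from the ARF product of Cdkn2a, which carries the same number in mouse. It lies on chromosome 9 from 21288463 to 21291209 (ENSMUSG00000096472). D+Q libraries had 13.1, 10.6, 10.2 and 7.59 CPM, old vehicle libraries 7.84, 8.99, 10.8 and 11.9 CPM, and young libraries 8.13, 11, 7.87 and 5.55 CPM. The ranges overlapped. The log2 fold change was 0.28 ± 0.22 (SE, 95% interval -0.20 to 0.75, adjusted p = 0.513) for old vehicle against young, 0.07 ± 0.22 (SE, 95% interval -0.40 to 0.54, adjusted p = 1) for D+Q against old vehicle and 0.35 ± 0.22 (SE, 95% interval -0.13 to 0.82, adjusted p = 0.366) for D+Q against young. The D+Q against old vehicle value turned negative without old vehicle replicate 1 (-0.03) and without D+Q replicate 1 (-0.07).

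Levels of different genes were compared on the deposited RPKM scale, which divides by gene length. Cdkn1a was the most abundant inhibitor in all 12 libraries, at 63.3 ± 22.0 RPKM in D+Q, 87.5 ± 21.2 RPKM in old vehicle and 31.8 ± 16.3 RPKM in young (SD, n = 4). Its mean over the 12 libraries stood above 95.2% of tested genes. Cdkn2d followed with a mean of 7.38 RPKM over the 12 libraries, then Cdkn1b with 5.61, Cdkn2c with 4.96, Cdkn1c with 4.20 and Cdkn2b with 0.898. Cdkn2a came last with 0.0127 RPKM. The middle of this order was not the same in each group. In D+Q the mean of Cdkn2c (5.10 RPKM) was above that of Cdkn1b (4.6 RPKM), in old vehicle that of Cdkn1c (4.78 RPKM) above that of Cdkn2c (4.64 RPKM), and in young that of Cdkn1b (7.17 RPKM) above that of Cdkn2d (6.47 RPKM). The ranges of Cdkn1b and Cdkn2c overlapped in each group, and so did those of Cdkn2c and Cdkn1c. Cdkn2d and Cdkn1b had separate ranges in D+Q and in old vehicle and overlapped in young. Cdkn2b lay below Cdkn1c in 12 of 12 libraries.

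The share of the summed RPKM of all 7 genes that came from Cdkn1a was 72.8 ± 7.06% in D+Q, 78.4 ± 5.06% in old vehicle and 54.4 ± 15.3% in young (SD, n = 4). The 6 other genes together summed to 22.3 ± 2.33 RPKM in D+Q, 23.1 ± 1.62 RPKM in old vehicle and 23.7 ± 3.33 RPKM in young. The 4 INK4 genes summed to 13.8 ± 2.13 RPKM in D+Q, 13.3 ± 0.992 RPKM in old vehicle and 12.6 ± 3.91 RPKM in young.

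**Figure D5:**
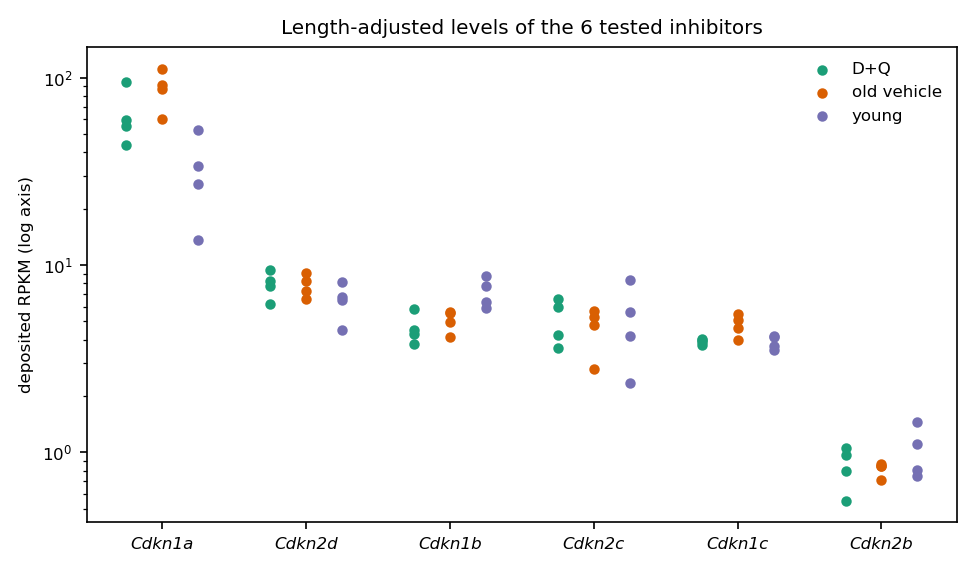
Deposited RPKM (y axis, log scale) of the 6 tested inhibitors in each library of D+Q, old vehicle and young. Cdkn1a lies above the other genes in every library, and Cdkn2b lies below them.

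The genes whose pattern over the 12 libraries was most like that of Cdkn1a were, in order, Spag5, Ogdhl, Ttc9, Musk and Rin1. Likeness was the root mean square difference of log2 CPM after each gene's own mean was subtracted. It was 0.435 for Spag5, a protein of the mitotic spindle, 0.438 for Ogdhl, a paralogue of a mitochondrial dehydrogenase subunit, and 0.452 for Ttc9. It was 0.469 for Musk, the receptor kinase of the neuromuscular junction, and 0.473 for Rin1. The median over the 10976 genes ranked was 0.86, and Cdkn1a itself had an SD of 0.87 on this scale. Of the 10976 genes these 5 were picked for their likeness, so the values carry no test.

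A list of 15 genes held cyclin-dependent kinases, cyclins and Mnat1, a partner of Cdk7 and Ccnh, and not all of them are targets of the inhibitors. Of the 15, 13 were tested and 0 were called by edgeR, DESeq2 or limma-voom in any of the 3 comparisons. At an unadjusted p under 0.05 there were 0 for old vehicle against young, 1 for D+Q against old vehicle and 1 for D+Q against young. The shares of all tested genes were 16%, 2.16% and 17.8% in the same order. Their log2 fold changes for old vehicle against young ran from -0.37 to 0.74, 6 above and 7 below 0 (median 0.00). Of the same 13 genes 12 were negative for D+Q against old vehicle (median -0.09, range -0.82 to 0.00), where 47.0% of all tested genes were negative. That count takes in Cdk7 (-0.05), Ccnh (-0.09) and Mnat1 (-0.10), and no test was made of it. Cdk6, a partner of the INK4 proteins, was below the filter with 12 reads in all D+Q libraries, 21 in all old vehicle libraries and 23 in all young libraries. Proliferation genes, 19 of 22 tested, gave 0 calls by edgeR, DESeq2 or limma-voom in each comparison. At an unadjusted p under 0.05 there was 1 of the 19 in each, against the same shares of all tested genes. Their medians were 0.12 for old vehicle against young and -0.15 for D+Q against old vehicle.

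Of 13 tested pocket proteins and E2F factors, 2 rose in old vehicle against young and 0 fell. Over all tested genes, 1.21% were called higher there and 0.65% lower. Of the same 13, 2 had an unadjusted p under 0.05 in that comparison, against 16% of all tested genes. For D+Q against young there were also 2, against 17.8% of all tested genes. E2f2, an E2F factor that drives replication genes, averaged 11.5 ± 1.33 CPM in D+Q, 12.1 ± 2.42 CPM in old vehicle and 4.07 ± 0.684 CPM in young (SD, n = 4). It rose 2.95-fold in old vehicle (adjusted p = 0.000835) and 2.82-fold in D+Q (adjusted p = 0.00372), each against young. It kept its call in all 18 other settings of both comparisons. Rb1, the retinoblastoma gene, averaged 34.6 ± 5.18 CPM in D+Q, 53.9 ± 1.47 CPM in old vehicle and 29.6 ± 7.76 CPM in young. It rose 1.82-fold in old vehicle against young (adjusted p = 0.0233). That call was lost when young replicate 1 was left out (adjusted p = 0.0834), and when any of the 4 old vehicle libraries was (adjusted p = 0.0600 to 0.0988). It was also lost with only old vehicle and young fitted (adjusted p = 0.0657). Its D+Q libraries, 27 to 38.5 CPM, did not overlap the old vehicle libraries, 52.1 to 55.7 CPM. The log2 fold change between them was not called (-0.64 ± 0.17 SE, adjusted p = 1). Over all tested genes, 1.12% were lower in D+Q than in old vehicle without overlap. Rb1 was named for its call in old vehicle against young. The same old vehicle libraries enter this comparison, and that choice favours a lower value in D+Q.

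Of 14 tested transcription regulators known to act on these genes, Trp63 and Myog rose both in D+Q and in old vehicle against young, and 0 fell. Over all tested genes, 0.526% were called higher and 0.365% lower for D+Q against young, and 1.21% higher and 0.65% lower for old vehicle against young. DESeq2 called 2 of the 14 for D+Q and 4 for old vehicle, and limma-voom 1 and 2. At an unadjusted p under 0.05 there were 6 of 14 for D+Q and 4 of 14 for old vehicle, against 17.8% and 16% of all tested genes. The lowest log2 fold change of the list was -0.49 in old vehicle against young, that of Smad3, a TGF-beta signal carrier, named after its values were seen (adjusted p = 0.0695). Trp63, a p53 family member that can bind p53 sites, averaged 30.0 ± 5.72 CPM in D+Q, 29.6 ± 4.04 CPM in old vehicle and 14.3 ± 1.65 CPM in young (SD, n = 4), 2.1-fold higher in D+Q (adjusted p = 0.00714) and 2.08-fold higher in old vehicle (adjusted p = 0.00359), each against young. With young replicates 3 and 4 left out, 0 of the 2 kept the D+Q call (adjusted p = 0.0673 for Trp63 and 0.265 for Myog), and both kept the old vehicle call. The Trp63 call in D+Q was also lost with only D+Q and young fitted (adjusted p = 0.0508). Myog, the muscle differentiation factor myogenin, averaged 14 ± 3.54 CPM in D+Q, 28.6 ± 14 CPM in old vehicle and 4.43 ± 1.25 CPM in young. It rose 6.42-fold in old vehicle (adjusted p = 0.00242) and 3.14-fold in D+Q (adjusted p = 0.0453), each against young. The D+Q call was lost in limma-voom (adjusted p = 0.0871) and with only D+Q and young fitted (adjusted p = 0.0508). It was also lost when young replicate 1, 3 or 4 was left out (adjusted p = 0.0814 to 0.137), and when D+Q replicate 1, 2 or 3 was (adjusted p = 0.107 to 0.130).

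Trp53, which encodes p53 and is named here after its values were seen, was not called, at 21.3 ± 3.03 CPM in D+Q, 23.6 ± 3.09 CPM in old vehicle and 18.5 ± 4.44 CPM in young. Its log2 fold change was 0.35 ± 0.17 (SE) for old vehicle against young (adjusted p = 0.331). Of 19 tested p53 target genes other than Cdkn1a, 2 rose and 0 fell in old vehicle against young (1.21% and 0.65% of all tested genes), and the same 2, Eda2r and Gadd45a, rose in D+Q against young (0.526% of all tested genes). DESeq2 called 3 for old vehicle against young and limma-voom 2, and 8 of the 19 had an unadjusted p under 0.05, against 16% of all tested genes. Those with a low unadjusted p went both ways. Ccng1 (log2 fold change -0.48 ± 0.18 SE), Fas (-0.57 ± 0.23 SE) and Ei24 (-0.39 ± 0.13 SE) were lower in old vehicle. Of all 19 values in that comparison, 11 were above 0 and 8 below. In D+Q against young DESeq2 and limma-voom each called 2, and 5 had an unadjusted p under 0.05, against 17.8% of all tested genes. Ccng1 (-0.45 ± 0.18 SE) and Ei24 (-0.39 ± 0.13 SE) were lower in D+Q, and of the 19 values 10 were above 0 and 9 below. Gadd45a, a growth arrest gene, averaged 38.7 ± 5.71 CPM in D+Q, 79.7 ± 16.5 CPM in old vehicle and 18.8 ± 1.43 CPM in young. Eda2r, a member of the tumour necrosis factor receptor superfamily, averaged 57.5 ± 23.6, 82.1 ± 11.5 and 17.3 ± 4.52 CPM in D+Q, old vehicle and young. Against young, Gadd45a rose 2.05-fold in D+Q (adjusted p = 0.00921) and 4.23-fold in old vehicle (adjusted p = 0.000146), and Eda2r rose 3.33-fold in D+Q (adjusted p = 0.0118) and 4.76-fold in old vehicle (adjusted p = 0.00167). The Eda2r call in D+Q ended without young replicate 3 (adjusted p = 0.0503) and with only D+Q and young fitted (adjusted p = 0.0780), and both D+Q calls ended with young replicates 3 and 4 left out (adjusted p = 0.0878 for Eda2r and 0.0927 for Gadd45a). Between D+Q and old vehicle the log2 fold change of Gadd45a was -1.04 (adjusted p = 0.221). Of 17 other settings 1 called it there, DESeq2 (adjusted p = 1.66e-05), while limma-voom did not (adjusted p = 0.24). Its libraries ran from 31.6 to 44.9 CPM in D+Q and from 60.6 to 98.5 CPM in old vehicle, without overlap. Over all tested genes, 1.12% were lower in D+Q than in old vehicle without overlap. Gadd45a was named for its calls against young, and the same old vehicle libraries enter this comparison. Mdm2, the p53 target that degrades p53 and is likewise named after its values were seen, was not called (log2 fold change 0.28 ± 0.09 SE, adjusted p = 0.168, for old vehicle against young). The median of the 19 was 0.03 for old vehicle against young and -0.05 for D+Q against old vehicle, against -0.01 and 0.01 over all tested genes.

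Other lists around the inhibitors gave 0 calls by edgeR in each comparison. They were the 12 polycomb repressors, proteins known to silence Cdkn2a and Cdkn2b, and the 11 tested genes that act in the turnover of p21 and p27. DESeq2 called 1 gene of each of these lists for old vehicle against young, and limma-voom 0, while over all genes they called 778 and 276. There 2 polycomb and 1 turnover gene had an unadjusted p under 0.05, against 16% of all tested genes. Further lists were the 6 tested neighbours of Cdkn1c and Mtap, the tested neighbour of Cdkn2a and Cdkn2b, with 0 calls by DESeq2 or limma-voom. For old vehicle against young the medians were -0.07 for polycomb repressors, -0.08 for turnover genes and 0.18 for the neighbours of Cdkn1c, and the log2 fold change of Mtap was -0.28. In D+Q against old vehicle these values were 0.01, 0.00, 0.00 and 0.03.

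In the marker lists of other cell types, the neutrophil sum was 23.9 CPM in D+Q replicate 4, the D+Q library with the highest Cdkn1a, against at most 2.52 CPM in the other 3 D+Q libraries, 1.95 CPM in old vehicle and 2.34 CPM in young. The red cell sum was 14.5 to 86.0 CPM in D+Q, 8.64 to 46.5 CPM in old vehicle and 4.59 to 14.5 CPM in young, and within D+Q it had the same order as Cdkn1a in 6 of 6 pairs of libraries. In old vehicle it had that order in 2 of 6 pairs and in young in 2 of 6 pairs, and this list too was picked out after the values were seen. Other lists stood out as much within D+Q. Skeletal muscle fibre markers and fibro-adipogenic progenitor markers each had the same order as Cdkn1a in 0 of 6 pairs there. Macrophage markers and smooth muscle and pericyte markers each had it in 5 of 6 pairs. Satellite cell markers had the order of Cdkn1a in 5 of 6 pairs both in old vehicle and in young, and in 3 of 6 in D+Q. Macrophage markers summed to 104 to 139 CPM in D+Q, 113 to 181 CPM in old vehicle and 103 to 146 CPM in young. Skeletal muscle fibre markers had the same order as Cdkn2d in 5 of 6 pairs of D+Q libraries, 5 of 6 pairs of old vehicle libraries and 6 of 6 pairs of young libraries. That list was likewise picked out after the values were seen. Adipocyte and fibro-adipogenic progenitor markers also had the order of Cdkn2d in 6 of 6 pairs in young, and each in 2 of 6 in old vehicle. The part of these cells in the levels of the inhibitors was not tested.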

How the data were processed

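RNA was taken from quadriceps and made into libraries with the TruSeq Stranded mRNA kit, per the labels' protocols. Tests used the whole-number counts of reads that the authors deposited for each gene. Levels between genes used the RPKM values, with gene lengths and positions, that the authors deposited beside them. Per the submitters' processing notes the tools were STAR 2.6.1c, Subread and featureCounts 1.5.1 with mm10. The sources used here do not give their roles, the strand setting or the annotation. In GENCODE M21, genes on the other strand overlap Cdkn1a (AC167363.2) and Cdkn1c (Gm44732). Neither is listed by that name among the counted genes. Whether reads from them fell into the counts of Cdkn1a and Cdkn1c is not known. For each of the 12 libraries 1 RPKM column of its group was proportional to counts over length (highest coefficient of variation 0.0736%). Within groups, pairs of libraries had a chi-square per gene of 20.1 to 309.

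edgeR 4.0.16 in R 4.3.3 kept genes by filterByExpr (minimum count 10, total 15), scaled by TMM and fitted group means over 12 libraries by quasi-likelihood. Adjusted p-values are Benjamini-Hochberg over 16146 genes, with a threshold of 0.05. CPM uses TMM-scaled totals, where 3 reads are 0.0561 to 0.106 CPM. Standard errors are the log2 fold change over the square root of F. The code was tested on simulated counts. Alternatives were DESeq2 1.42.0, limma-voom (limma 3.58.1), 2 scalings, 2 filters, 2-group fits, a replicate block and 1 library omitted at a time. A length slope and the omission of 2 young libraries were added after seeing the data. All 7 inhibitors were named, with up to 3 called genes of each list and the 5 genes most like Cdkn1a (mean log2 CPM of at least 1, leaving out predicted genes and Riken clones). The members, lists and settings were chosen with earlier results of these data known.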

Additional observations from a re-analysis of the deposited data

Results flagged for a closer look

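Among the 21 sets of 4 libraries formed by 7 genes and 3 groups, 2 held a library far from the other 3, and chance gives about 1 in 20. Cdkn1c stood at 6.66 CPM in young replicate 4, against 7.55 to 7.64 CPM in the other 3 young libraries. Cdkn2a stood at 0.0233 CPM in young replicate 1, which is 1 read, against 0 in the other 3. With the other 3 tied at 0, any single read would stand out in this way, so the second case says nothing about that library.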

How the results depend on the processing

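The count of all called genes was the least steady value. For old vehicle against young it was 300, and 778 with DESeq2, 188 with the 2 groups alone, 141 with the replicate block, 146 to 1022 without 1 library, 80 without young replicates 3 and 4 and 1784 with a length slope. For D+Q against young it was 144, and 610, 25, 35, 44 to 1935, 15 and 612 in the same order. For D+Q against old vehicle it was 0, and 11 with DESeq2. Cdkn1a in old vehicle against young passed with DESeq2 (1.45), limma-voom (1.58), no filter (1.45, adjusted p = 0.0344), the replicate block (1.57, adjusted p = 0.0208) and a length slope (1.52, adjusted p = 0.0153), and ran from 1.20 to 1.79 without 1 library. Cdkn1b passed for old vehicle with DESeq2 (-0.50) and a length slope (-0.42, adjusted p = 0.0222). For D+Q against young it passed with DESeq2 (-0.59) and a length slope (-0.47, adjusted p = 0.0341), and ran from -0.67 to -0.49 without 1 library. Cdkn2c for D+Q against young turned to -0.01 with library totals, -0.44 without young replicates 3 and 4 and -0.10 with a length slope, and ran from -0.21 to 0.41 without 1 library. For old vehicle against young it ran from -0.41 to 0.22. For D+Q against old vehicle Cdkn2d turned to -0.02 with a length slope and ran from -0.07 to 0.20, Cdkn2b from -0.01 to 0.25, Trp63 from -0.07 to 0.10 and E2f2 from -0.18 to 0.05 without 1 library. With library totals Trp63 turned to -0.03 there, and Mdm2 to -0.04 for D+Q against young, where it ran from -0.04 to 0.06. The replicate block also ended the calls of Rb1 in old vehicle (adjusted p = 0.0719) and Myog in D+Q (adjusted p = 0.0871), each against young. Deviations of same-numbered libraries correlated over 0.1 in 2 of 4 pairs of D+Q and old vehicle (-0.34 to 0.25), 2 of 4 of D+Q and young (-0.32 to 0.41) and 0 of 4 of old vehicle and young (-0.40 to 0.00). As this was not so in every pair, the numbers were not taken to pair the samples. The cause of these changes was not tested. Cdkn2a kept its direction in the 10 other settings of its permutation test run in each comparison, and its depth of at most 3 reads a library limits it.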
